A study of Mus musculus with 2 samples.

Results

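The regions described here are the autosomal regions among the first 1197 rows of a deposited table of H3K9me2 ChIP-seq values, taken in the order of deposition. Chromosomes 1 to 19 were kept, which left 1176 of the 23946 regions of the table, and 20 regions on the X and 1 on the Y chromosome were left out. They are called leading regions below. The autosomal regions of rows 4789 to 14364, 9277 in all, served as comparison regions. Neither the origin of the regions nor the meaning of their order is given in the sources used here, and whether the rows were ordered by the values of these libraries was not tested. If they were, the differences in level and shape below describe the ordering.

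The mark was profiled by ChIP-seq in MC1-ZE7 cells, which are mouse embryonic stem (ES) cells labelled MC1 (129S6/SvEvTac), grown without feeders in serum and leukemia inhibitory factor. Fluorescence of Emerald served to sort them into an Emerald-negative population and the high fraction of an Emerald-positive population, which the series describes as Zscan4 negative and positive. No treatment other than the sort is given, and the antibody was the same for both (Abcam ab1220). Each population has 1 library, so no difference between the populations was tested, and no input is used here.

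H3K9me2 is the dimethylated form of lysine 9 of histone H3. In ES cells it is placed mainly by the paired methyltransferases G9a and GLP, it spreads over broad stretches of silent chromatin, and much of it lies at the nuclear periphery. Zscan4 is a family of zinc finger proteins that a small and changing minority of ES cells express, in a passing state that shares transcripts with the early embryo, and it is known for its link to telomere maintenance. The table gives no gene for a region and no annotation of its build (mm9) was used here, so regions are named by position and the sort could not be checked against Zscan4 expression.

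Each region is the centre of a 10 kb window of 50 bins of 200 bp. The deposited signal in every bin was a whole multiple of 1 constant per library, which gave back whole reads. Levels within a library are in reads per window. Ratios between libraries use the deposited scaling, in which 1 read counts 1.12 for the Emerald-positive and 0.902 for the Emerald-negative library. On that scale a uniform gain or loss of the mark cannot be seen.

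The leading regions carried about 2 times the H3K9me2 reads of the comparison regions in both libraries. In the Emerald-positive library their median was 12 reads per window (quartiles 7 and 19), against 6 reads (quartiles 3 and 11) at the comparison regions. In the Emerald-negative library it was 15 reads (quartiles 9 and 23), against 8 reads (quartiles 4 and 13). Scaled by the authors' constants, the medians of the leading regions were 13.5 in both libraries. The comparison regions were also divided into 8 successive blocks of 1197 rows each, which hold 1153 to 1164 autosomal regions. Block medians ran from 6 to 7 reads for the Emerald-positive and from 7 to 8 reads for the Emerald-negative library, so the leading regions stood above each of the 8 blocks. The comparison rows lie in a low part of the table. All autosomal regions had medians of 7 and 9 reads. Near the end of the table, the 1185 autosomal regions of the 1197 rows from row 22744 had medians of 9 and 11 reads.

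The sets nevertheless overlapped widely. Of the leading regions, 922 (78.4%) lay above the comparison median in the Emerald-positive library and 254 lay at or below it. In the Emerald-negative library 892 (75.9%) lay above and 284 at or below. The highest 5% of comparison regions had over 20 reads in the Emerald-positive library, a level passed by 20.7% of the leading regions. In the Emerald-negative library, 20.8% of the leading regions passed the corresponding level of 24 reads. The leading regions were slightly narrower, with widths of 214 to 3548 bp (median 981.5 bp) against 214 to 7077 bp (median 1169 bp). Width and level went together weakly at most, with a Spearman correlation of -0.047 across the 1176 leading regions and 0.013 across the comparison regions. From the narrowest to the widest quartile of the leading regions, the median was 13, 12, 12 and 12 reads in the Emerald-positive library.

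**Figure D1:**
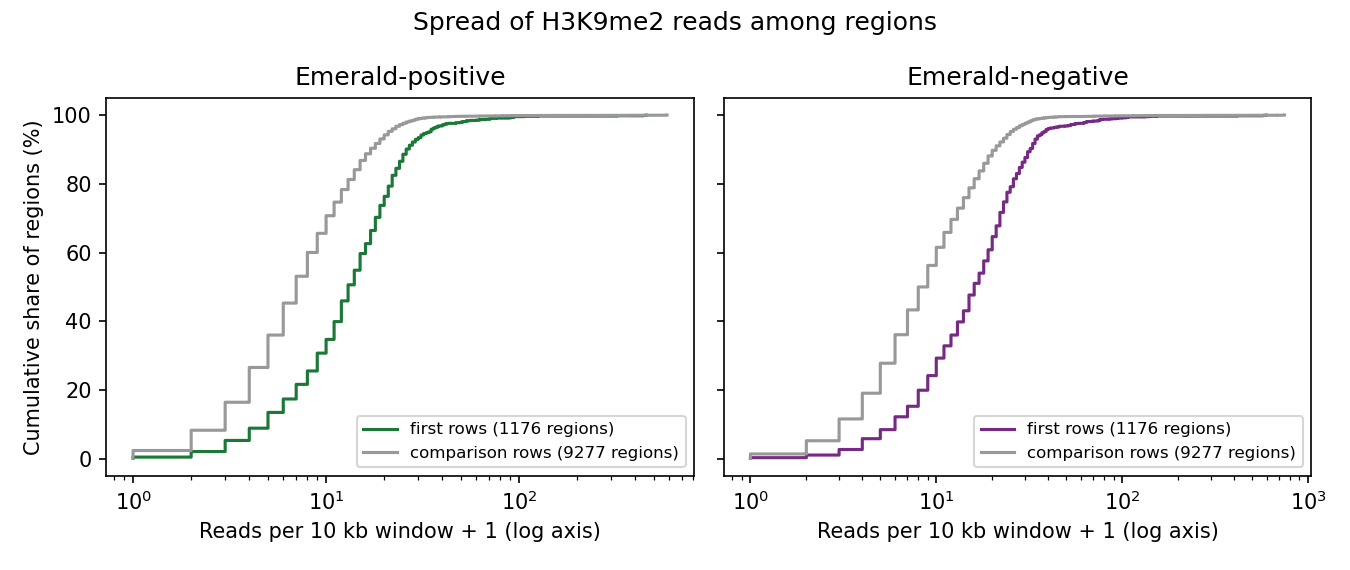
Cumulative share of regions (vertical axis, %) against reads per 10 kb window plus 1 (horizontal log axis), for the leading regions in colour and the comparison regions in grey, 1 panel per library. The leading curve lies to the right of the comparison curve in both panels, with medians of 12 against 6 reads (Emerald-positive) and 15 against 8 reads (Emerald-negative), and the curves overlap.

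The leading median was above the comparison median on each of the 19 autosomes in both libraries. The ratio of the leading to the comparison median ran from 1.5 on chromosome 13 to 2.80 on chromosome 7 in the Emerald-positive library. In the Emerald-negative library it ran from 1.33 on chromosome 16 to 2.83 on chromosome 7. The leading regions of chromosome 8 had the highest medians, 19 reads in the Emerald-positive and 23.5 reads in the Emerald-negative library, against 8 and 11 reads at the comparison regions of that chromosome. These comparison medians were also the highest of the 19 autosomes, shared with chromosome 13 in the Emerald-positive library. The copy number of chromosome 8 was not tested, since no input is used here.

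Within the leading rows the level fell with the row number. In the first group of 100 rows, with 95 autosomal regions, the Emerald-positive library had a median of 18 reads (quartiles 12 and 24). The Emerald-negative library had 22 (quartiles 16 and 29). In the sixth group the medians were 11 and 14 reads. In the last group, of 97 rows, they were 8.5 and 10 reads. The decline was uneven, and in the Emerald-positive library the fourth group, with a median of 16 reads, stood above the third, with 14. Across the 1176 regions the Spearman correlation of row number with reads in both libraries was -0.330, against 0.026 across the comparison regions, where the rows span a wider range. These are descriptions across regions of the same 2 libraries.

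The limit at row 1197 did not mark a step in level. The last row included, on chromosome 5 (53294058 to 53294698), had 6 reads for the Emerald-positive and 9 for the Emerald-negative library. The next row, on chromosome 19 (47066705 to 47068340), had 4 and 14 reads. The 1165 autosomal regions of the following 1197 rows had medians of 8 and 10 reads, close to the last leading group.

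**Figure D2:**
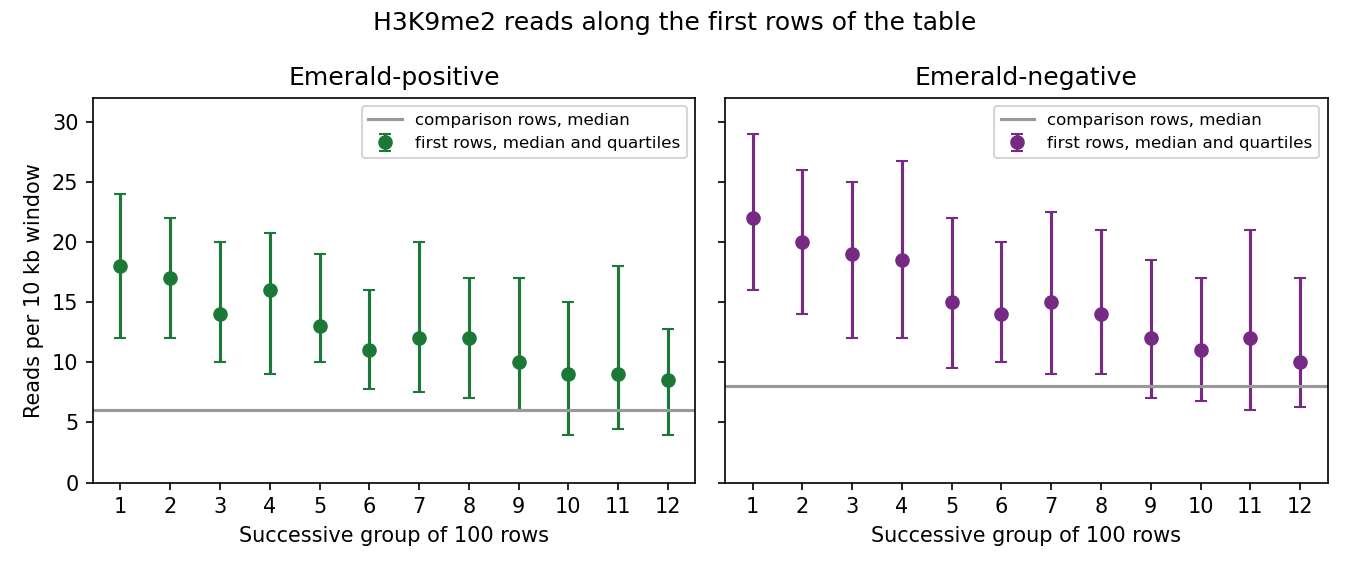
Reads per 10 kb window (vertical axis) in 12 successive groups of rows (horizontal axis; 100 rows each, 97 in the last), with points at the median and bars at the quartiles, and a grey line at the comparison median. Medians go from 18 to 8.5 reads for the Emerald-positive and from 22 to 10 reads for the Emerald-negative library, and each of the 12 medians lies above the grey line.

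Much of the spread of level among the leading regions was carried by a few heavily read regions. Their coefficient of variation was 1.49 for the Emerald-positive and 1.57 for the Emerald-negative library. The variance was 34.4 and 46.6 times the mean, where counting error alone gives 1. At the comparison regions the coefficient was higher, 1.61 and 1.79, and the variance was 21.3 and 32.4 times the mean. Over 100 reads in both libraries together were found at 28 leading regions (2.38%), which held 16.4% of all reads of the leading regions. Among the comparison regions 35 (0.377%) were so heavily read, and they held 6.68% of the reads. Without these regions the coefficient of variation of the leading regions was 0.607 and 0.60, below the 0.788 and 0.764 of the comparison regions treated alike. Their variance was then still 4.92 and 5.84 times the mean, against 4.78 and 5.53 times at the comparison regions. The order of the 2 sets in spread thus depended on the measure. The medians of the leading regions stayed at 12 and 15 reads. Levels in the libraries went together, with a Spearman correlation of 0.805 across the leading and 0.740 across the comparison regions. Deeper regions have less counting error, and its part in that difference was not tested.

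Of the 28 heavily read regions, 13 lay on chromosome 7, 4 on chromosome 4, 3 each on chromosomes 3 and 12, and 1 each on chromosomes 1, 8, 11, 14 and 16. Some lay under 10 kb apart, as on chromosome 7 (at 90557403 and 90558406) and chromosome 12 (at 89491512 and 89494317). Their windows overlap, so shared reads count more than once in the totals above. The most reads fell on a region of chromosome 8 (20012672 to 20013458), with 456 for the Emerald-positive and 597 for the Emerald-negative library. A region of chromosome 11 (3067389 to 3068432) had 440 and 571 reads. A region of chromosome 14 (6036216 to 6036845) had 320 and 415 reads. These 3 regions alone held 6.89% of the reads of the leading regions, and they came late in the leading rows, at rows 1167, 1122 and 840. In scaled reads each was nearly equal between the libraries, with ratios of 0.949 (counting interval 0.838 to 1.07), 0.957 (0.844 to 1.09) and 0.958 (0.825 to 1.11).

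Next came 2 regions of chromosome 4. The one at 146891442 to 146893439 had 124 reads for the Emerald-positive and 140 for the Emerald-negative library, a scaled ratio of 1.10 (0.857 to 1.41). The one at 145713166 to 145715092 had 105 and 152 reads, or 0.858 (0.663 to 1.11). The intervals of both held 1. The region in the first row of the table, on chromosome 7 (111919938 to 111920243), was also heavily read, with 70 and 104 reads and a ratio of 0.836 (0.609 to 1.14). At heavily read regions a high level and a high copy number cannot be told apart, nor can the effect of how reads were mapped, since no input is used here and nothing is known of duplicate removal.

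The leading regions differed from the comparison regions in the shape of the signal as well as in its level. H3K9me2 at the comparison regions dipped at the centre, where the mean signal per bin fell to 0.0954 for the Emerald-positive and 0.0922 for the Emerald-negative library. At the leading regions no bin was below 0.286 and 0.299. In the central 10 bins the signal averaged 0.361 for the Emerald-positive and 0.341 for the Emerald-negative library, and in the outer 40 bins 0.345 and 0.343. The ratio of centre to flank was thus 1.05 (counting interval 1.01 to 1.08) and 0.994 (0.962 to 1.03). Among the 8 comparison blocks it ran from 0.580 to 0.763 and from 0.545 to 0.629.

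Both zones had a higher level than at the comparison regions, and the fold was larger in the centre than in the flanks. In the flanks the leading regions had 1.73 times (1.7 to 1.77) the reads per region of the comparison regions in the Emerald-positive library. In the Emerald-negative library they had 1.72 times (1.7 to 1.75). In the centre the ratios were 2.92 (2.82 to 3.03) and 2.90 (2.81 to 3.00). These intervals cover counting error only, and overlapping windows share reads. No central read was found at 19.1% of the leading regions for the Emerald-positive and 14.1% for the Emerald-negative library, against 50.4% and 46.5% of the comparison regions. At this depth a count of 0 allows up to 3 reads.

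In each quartile of width the leading regions had a fuller centre than comparison regions of the same widths. In the quartile with widths up to 629 bp the ratio of centre to flank was 1.10 for the Emerald-positive and 1.03 for the Emerald-negative library, and in the widest quartile it was 1.02 and 0.986. The lowest value was that of the second quartile (630 to 981 bp) in the Emerald-negative library, 0.881, beside 1.04 in the Emerald-positive library. Comparison regions of the same widths had 0.624 and 0.612 in the narrowest class and 0.607 and 0.580 in the widest, and 0.623 and 0.559 in the second. Along the rows the ratio varied between groups of 100 rows, from 0.845 to 1.18 in the Emerald-positive and from 0.863 to 1.15 in the Emerald-negative library. The following 1197 rows had 0.819 and 0.810, between the leading and the comparison regions. A rise of the mean profile 900 to 1100 bp right of the centre rested on the heavily read regions. It reached 0.411 for the Emerald-positive and 0.402 for the Emerald-negative library with them and 0.291 and 0.293 without them.

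**Figure D3:**
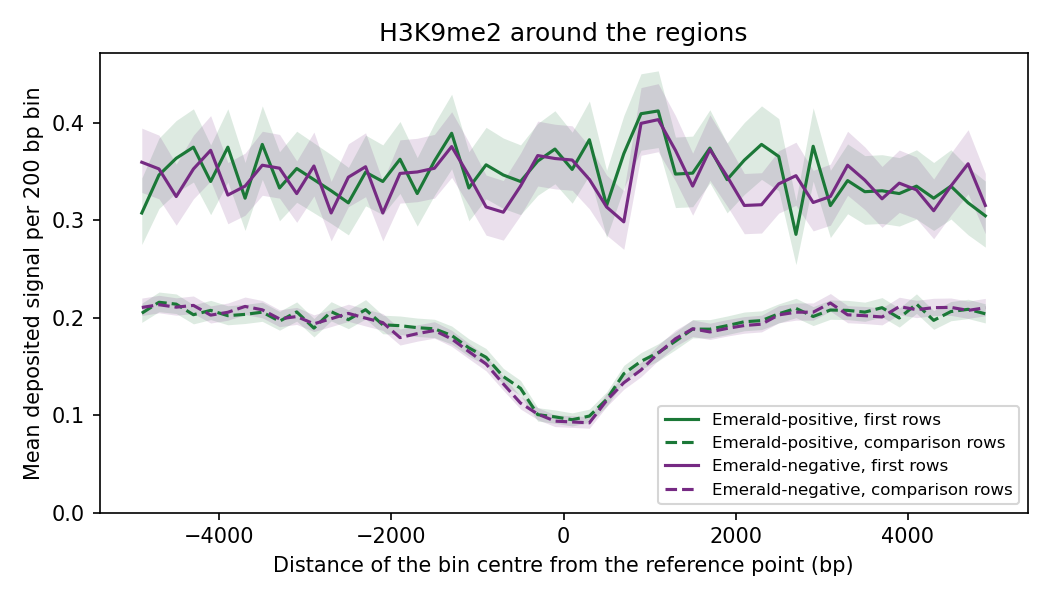
Mean deposited signal per 200 bp bin (vertical axis) against the distance of the bin centre from the reference point (horizontal axis, bp), with shaded 95% counting intervals. The leading regions (solid) stay between 0.286 and 0.412 across the window in both libraries, while the comparison regions (dashed) dip from 0.216 to 0.0922.

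On the genome, the leading regions lay where the table is sparse. Within 100 kb a leading region had a median of 3 other regions of the table (quartiles 1 and 5), a comparison region 5 (quartiles 2 and 8). No other region within 100 kb was found for 218 leading regions (18.5%), against 7.13% to 8.85% in the comparison blocks. The nearest region of any kind was at a median distance of 22.1 kb, against 9.0 to 11.8 kb in the blocks. Fewer of the windows therefore overlapped, with 31.0% of leading regions under 10 kb from another region against 43.9% to 52.6%.

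Sparse placement and a high level went together in both sets, yet the leading regions were higher in each class of density. With no other region within 100 kb the median was 17.5 reads at leading and 12 at comparison regions in the Emerald-positive library, and 22 against 15 in the Emerald-negative library. With 1 to 3 other regions the medians were 14 against 8 and 17 against 10. With 4 to 9 they were 9 against 5 and 10 against 7. With 10 or more they were 6 against 4 and 7 against 5. Reads and the number of neighbours had a Spearman correlation of -0.504 across the leading and -0.390 across the comparison regions.

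Whether leading regions lay near each other depended on the distance and on the measure. The nearest other leading region was at a median of 446 kb, farther than the 341 to 401 kb of the blocks. Another leading region lay within 500 kb of 52.2% of them, below the 55.5% to 59.4% of the blocks. Within 100 kb there was another for 312 (26.5%), which is inside the range of the comparison blocks (23.4% to 29.0%). However, the leading regions had only 4093 neighbours of any kind within that distance, and 374 of these (9.14%) were leading regions themselves. In the blocks, 5.19% to 6.62% of the neighbours belonged to the same block. The nearest region of the table was a leading region for 201 of the leading regions (17.1%), against 4.75% to 7.48% in the blocks. Among regions at least 10 kb apart, whose windows do not overlap, the last share was 12.9% against 4.27% to 6.47%. In that setting 18.2% of leading regions had another within 100 kb, above the 13.2% to 17.6% of the blocks.

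Joined at 100 kb, the leading regions formed 143 runs of 2 or more with 312 regions in them, and 864 stood alone. The runs were short, with 120 pairs, 21 triplets, 1 run of 4 and 1 of 5. In 99 of the 143 runs, each region of the table inside the span was a leading region. The blocks had 124 to 152 runs, so the number of runs did not set the leading regions apart.

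**Figure D4:**
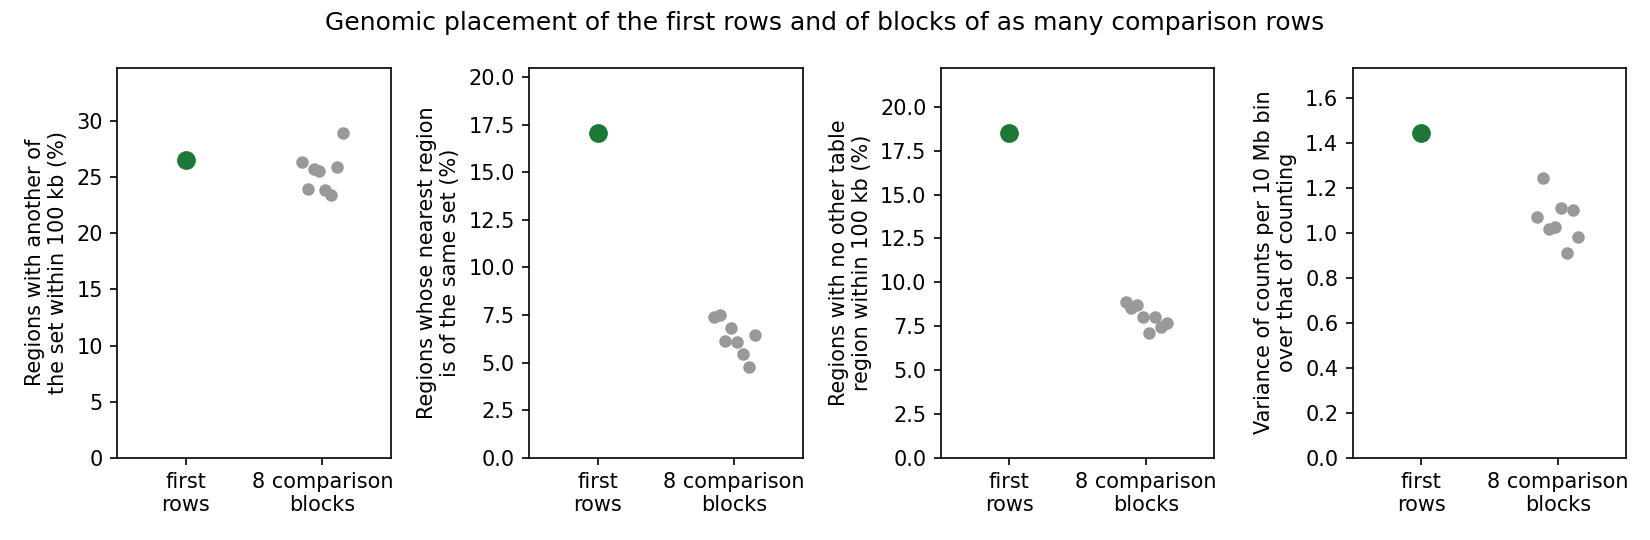
Placement on the genome for the leading regions (green point) and the 8 comparison blocks of as many rows (grey points): regions with another of the same set within 100 kb (%), regions whose nearest table region is of the same set (%), regions with no other table region within 100 kb (%), and the variance of counts per 10 Mb bin over that of counting. The leading regions lie within the blocks for the first measure (26.5%) and above all 8 for the others (17.1%, 18.5% and 1.45).

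The largest run, of 5 leading regions, lay on chromosome 7 (11895624 to 12194696). A run of 3 lay just before it (11590211 to 11753061). Together they span 604 kb, and the 8 regions that the table holds there are all leading regions, at rows 9 to 120. In the Emerald-positive library they had 37 to 93 reads (median 69.5), and in the Emerald-negative library 55 to 99 reads (median 69). These medians were 5.79 and 4.60 times those of all leading regions. Their midpoints were 36.6 to 144 kb apart, so no windows were shared. Within 1 Mb to either side of the run of 5, the table held 1 leading region besides these 8, with 18 and 25 reads. It also held 3 other regions there, with 6 to 13 and 10 to 13 reads. In these 8 regions reads were denser in the centre, with ratios of centre to flank of 1.52 and 1.44.

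The runs were joined into this chromosome 7 group after their values were seen. In scaled H3K9me2 signal the run of 5 had a pooled log2 ratio of 0.20 (counting interval -0.0088 to 0.41), which held 0. The run of 3 had 0.33 (0.042 to 0.61), with more signal in the Emerald-positive library. It was picked from 21 runs of 3 by its Emerald-positive reads, and such a choice favours a high ratio. Over the 8 regions, which include that run, the pooled log2 ratio was 0.25 (counting interval 0.078 to 0.41), or 1.19-fold (1.06 to 1.33). This ratio came from 569 Emerald-positive and 596 Emerald-negative reads. The log2 ratio was above the common ratio at 7 of the 8 regions, although no single region's interval excluded the common ratio. Among all 143 runs, intervals lay above the common ratio at 9 (6.29%) and below it at 6 (4.2%). Shares for runs of comparison regions are not given here, so these counts have no background beside them. The Zscan4 genes are on chromosome 7 in the RefSeq annotation of GRCm38. Where they lie relative to this group in mm9 was not analysed here.

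The other named runs were lower in level, and the runs of 3 among them were also picked by their Emerald-positive reads. A run of 4 on chromosome 5 (105334946 to 105418226) had 10 to 24 reads for the Emerald-positive and 16 to 26 for the Emerald-negative library, with a pooled log2 ratio of -0.11 (-0.62 to 0.40). A run of 3 on chromosome 3 (93594169 to 93623860) had 46 to 52 and 63 to 76 reads, with a ratio of -0.18 (-0.50 to 0.13). Another 3 lay further along chromosome 3 (94026162 to 94067688), with 31 to 39 and 30 to 54 reads and a ratio of -0.063 (-0.45 to 0.32). The intervals of all 3 runs held 0.

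Seen in bins of 10 Mb, the leading regions were spread over nearly the whole genome. They were found in 247 of the 258 autosomal bins with any region of the table, and the comparison blocks in 237 to 243. At least 20 regions lay in 251 bins. In these, the median share of leading regions was 4.84% (quartiles 3.20% and 7.06%), near their share of 5.04% of all autosomal regions. The shares were more uneven than in the blocks. The counts per bin varied 1.45 times as much as counting would give, against 0.912 to 1.25 times in the blocks, and 23 bins reached a share of 10%, against 6 to 18.

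By number, the bins at 30 to 40 Mb of chromosome 16 and 80 to 90 Mb of chromosome 8 led with 14 leading regions each, of 161 and 191 regions. The bins at 100 to 110 Mb of chromosome 13, 10 to 20 Mb of chromosome 7 and 130 to 140 Mb of chromosome 4 had 13 each. These bins were unlike in level. On chromosome 7 the leading regions of the bin, which include the group above, had medians of 59 and 57 reads, and its other regions 4 and 5. On chromosome 8 the medians were 19 and 20 reads against 7 and 11. On chromosome 4 they were 4 and 5 reads against 4 and 4, so that in this bin they differed by at most 1 read.

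By share, the bins at 140 to 150 Mb of chromosome 1 (8 of 40 regions) and 150 to 160 Mb of chromosome 5 (5 of 25) led with 20.0%. The bins at 60 to 70 Mb of chromosome 19 (4 of 21 regions), 100 to 110 Mb of chromosome 10 (6 of 32) and 10 to 20 Mb of chromosome 5 (7 of 45) followed. With so few regions the largest share is unstable, and the blocks had maxima of 12.8% to 23.8%. By chromosome the share ran from 3.17% on chromosome 17 to 6.46% on chromosome 13. The share in a bin went with the level of its other regions, with a Spearman correlation of 0.286 over 251 bins, and inversely with their number, at -0.211.

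Other regions near the leading regions had the level of the comparison regions. Regions outside the leading set but 10 to 100 kb from a leading region, 2821 in all, had medians of 6 and 8 reads. The medians were also 6 and 8 reads for the 411 such regions at 10 to 20 kb. Of the 851 leading regions with such neighbours, 61.6% had more reads than the mean of their own neighbours in the Emerald-positive library and 61.1% in the Emerald-negative library. Both held for 47.1%. For the comparison regions, set against neighbours from other rows, these shares were 37.0%, 37.1% and 23%. In 188 bins of 10 Mb with 3 or more leading regions, the leading median was above that of the other regions in both libraries in 152 bins and below it in at least 1 library in 27.

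Between the populations, scaled H3K9me2 at the leading regions was nearly equal. The average leading region had 17.4 scaled reads for the Emerald-positive and 17.1 for the Emerald-negative library. The pooled log2 ratio was 0.023 (counting interval -0.0049 to 0.052), and it was 0.0089 (-0.0049 to 0.023) at the comparison regions. The 8 blocks ranged from -0.016 to 0.043, so the leading regions lay inside that range. Without the 28 heavily read regions the ratio of the leading regions was 0.035 (0.0041 to 0.066). The comparison regions treated alike had 0.018 (0.0041 to 0.033), so that both intervals then excluded 0. Overlapping windows share reads, which these intervals do not allow for. With heavily read regions kept but only regions at least 10 kb apart, the leading regions had 0.022 (-0.0077 to 0.052). The interval of all leading regions held the common ratio of all reads in the table, a log2 value of 0.012. Without the 8 regions of the chromosome 7 group the pooled ratio of the leading regions was 0.017 (-0.012 to 0.045). Their median log2 ratio, over the 1168 with a read in both libraries and with the pseudocount of 0.036, was 0.024 (quartiles -0.31 and 0.38), against 0.0097 for all autosomal regions.

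At least 2-fold higher signal in the Emerald-positive library was found at 46 leading regions (3.94%), against 5.39% of all autosomal regions. At least 2-fold lower signal was found at 49 (4.2%), against 5.46%. Both shares were below the background. With a pseudocount at the 25th percentile both were above it, at 1.97% against 1.62% and 1.88% against 1.68%. Deeper windows have less counting error, and its part in these shares was not tested. The leading regions' log2 ratios had an SD of 0.570 against 0.628 at the comparison regions. In the quartile of leading regions with the fewest reads (up to 17 in both libraries) 21 were higher and 25 lower, and in the quartile with the most (41 to 1053) 1 was higher and 3 were lower.

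By counting intervals, a larger share of the leading regions than of the whole table departed from the common ratio. The 95% interval lay above the common ratio at 32 leading regions (2.74%), against 1.72% of all autosomal regions, and below it at 26 (2.23%), against 1.39%. The range over the comparison blocks was 0.728% to 1.96% above and 0.978% to 1.60% below. The leading regions have more reads than the rest of the table, so these shares are not matched for depth, whose part was not tested. In the quartile of leading regions with the fewest reads, 2.45% of intervals lay above and 1.05% below. The shares were 4.42% and 3.40% in the second quartile and 1.70% and 1.36% in the third. In the quartile with the most reads they were 2.38% and 3.06%. Squared deviations from the common ratio averaged 1.14 times the counting variance at the leading regions. The average was 1.09 times over all autosomal regions and 1.03 to 1.12 times in the blocks. With 1 library per population, differences between the populations and between preparations cannot be told apart.

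**Figure D5:**
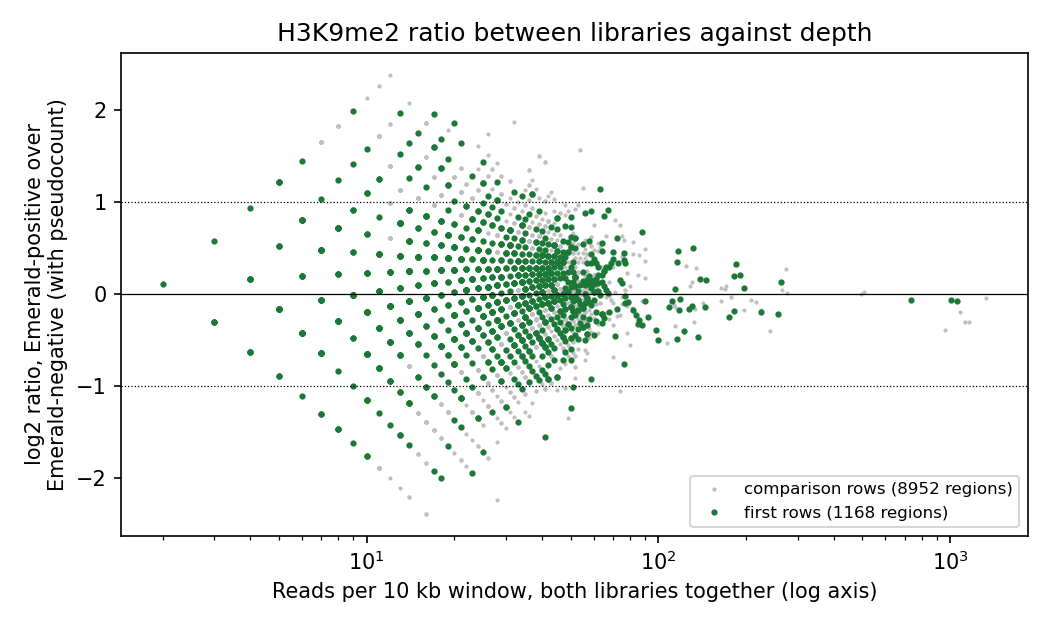
Log2 ratio of Emerald-positive over Emerald-negative signal, with the pseudocount (vertical axis), against reads per 10 kb window in both libraries together (horizontal log axis), for 1168 leading regions (green) and 8952 comparison regions (grey); dotted lines mark 2-fold. Both sets narrow towards 0 with depth, and of the leading regions 46 lie on or above the upper and 49 on or below the lower line.

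The highest and lowest ratios among leading regions above their median signal rested on few reads. The highest was on chromosome 17 (88540007 to 88541715), with 19 reads for the Emerald-positive and 9 for the Emerald-negative library, or 2.62-fold (1.13 to 6.58). The best covered of the 5 highest was on chromosome 8 (62818494 to 62819409), with 41 and 22 reads, or 2.32-fold (1.35 to 4.08). A region on chromosome 2 (155056154 to 155056879) had 21 and 11 reads, or 2.37-fold (1.09 to 5.45). Regions on chromosome 9 (29487434 to 29488625) and chromosome 1 (128063920 to 128065916) each had 24 and 13 reads, or 2.29-fold (1.12 to 4.91).

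The lowest ratio was on chromosome 1 (136112261 to 136113152), with 8 reads for the Emerald-positive and 33 for the Emerald-negative library, a ratio of 0.301 (0.120 to 0.665). It was followed by a region on chromosome 2 (73086239 to 73087606) with 7 and 26 reads, a scaled ratio of 0.335 (0.123 to 0.791). Another on chromosome 2 (125371131 to 125371783) had 12 and 38 reads, a ratio of 0.392 (0.187 to 0.767). Regions on chromosome 4 (19664861 to 19665361) and chromosome 5 (151024378 to 151025690) each had 7 and 23 reads, a ratio of 0.378 (0.137 to 0.910). All 10 intervals excluded the common ratio, but the regions were picked for their ratios from 584, so these intervals are descriptions.

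No course of the ratio along the leading rows was detectable at this depth. The pooled log2 ratio of the 12 groups of rows ran from -0.044 to 0.12 and was above 0 in 7 of them, and the interval held 0 in 11. By chromosome it ran from -0.12 on chromosome 6 to 0.24 (0.10 to 0.38) on chromosome 9, and the interval held 0 on 18 of 19 chromosomes. By bin of 10 Mb, intervals lay above the common ratio in 11 of 247 bins and below it in 6, and no count for the comparison regions is given beside these. Among the bins named above, the pooled log2 ratio was 0.48 (0.090 to 0.88) on chromosome 16, 0.29 (0.051 to 0.53) on chromosome 8 and 0.20 (0.041 to 0.36) on chromosome 7. It was 0.48 (0.074 to 0.89) at 140 to 150 Mb of chromosome 1 and -0.80 (-1.54 to -0.089) in the bin of chromosome 19. The intervals of the other 5 bins held 0.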

How the data were processed

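The labels' protocols describe sorted cells fixed in 1% formaldehyde for 10 min, chromatin sonicated to 150 to 450 bp, and precipitation with 3 µg of antibody. They mention a second experiment with another size selection and do not assign the libraries to an experiment. Per the file headers, the deposited signal of a library stands in 50 bins of 200 bp with centres from -4900 to 4900 bp. The authors scaled it. The values are multiples of 1 constant cut to 2 decimals, which held for 100% of values above 0 in both libraries. Summed over the leading regions there were 18280 Emerald-positive and 22347 Emerald-negative reads. The build is mm9 per the submitters' processing notes. The aligner, the handling of duplicates and the scaling total: not given in the sources used here.

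Ratios were log2((Emerald-positive + c)/(Emerald-negative + c)) of mean signal over bins, with c of 0.036 (5th percentile of nonzero region means), for regions with a read in both libraries. Intervals are 95% Clopper-Pearson intervals on reads conditional on the total of both libraries, or normal on the log scale for ratios of zones. They cover counting error only, in reads that may be copies of 1 molecule. The common ratio was that of all reads in the table. Unevenness over bins is the summed squared deviation of the counts over their expectation, divided by the bins minus 1. Scripts were tested on simulated data. Named were the 5 most-read regions, the 5 highest and 5 lowest ratios above the median signal, the 5 largest runs (ties by Emerald-positive reads), the 5 bins with most members and with the largest share, and the rows at the limits. The chromosome 7 group joins 2 named runs and was put together after its values were seen. The regions, comparison rows and tests were chosen with earlier results of these data known. Alternatives to window, summary, filter, pseudocount, scaling, distance and bin size were tried, and those without the chromosome 7 group, and for clustering without heavily read regions, were added after seeing the data. No sequence is printed because no mm9 genome was used here. Computation used Python 3.11.15 with scipy 1.17.1, pandas 2.3.3 and numpy 2.4.6, and figures matplotlib 3.10.9.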

Additional observations from a re-analysis of the deposited data

How the results depend on the processing

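In medians, levels and ratios move in steps of whole reads. The level of the leading regions, 12 and 15 reads per 10 kb in the Emerald-positive and Emerald-negative library, was 15.5 and 19 as a mean and 10 in the central 10 bins of the Emerald-positive library. Its ratio to the comparison regions, 2.00 and 1.88, was 1.71 against all other autosomal regions and 1.89 with means in the Emerald-positive library. In the Emerald-negative library it was 3.00 in the central and 1.71 in the outer bins. The central bins gave no such ratio in the Emerald-positive library, where the comparison median was 0. The centre-to-flank ratio fell from 1.05 and 0.994 to 1.00041 and 0.952 without regions over 100 reads, and in the Emerald-negative library it was 1.05 with the central 4 bins. The coefficient of variation, 1.49 and 1.57, was 0.607 and 0.60 without those regions. The median log2 ratio was 0.17 in the central bins, for leading and all autosomal regions alike, which is the value of 1 read in each library. With the pseudocount at the 25th percentile 23 leading regions were at least 2-fold higher and 22 lower, or 1.97% and 1.88% against 1.62% and 1.68% of all autosomal regions, so that the order of leading and background shares turned. At 500 kb, 52.2% of leading regions had another within the distance, below the 55.5% to 59.4% of the blocks, and 6.02% of nearby regions were leading regions, against 5.19% to 5.62%. The lowest ratio, on chromosome 1 at 136112261, turned from -1.55 to 0.17 in the central bins with 1 read in each library. Of 77 values of the 10 regions named for their ratio under 8 alternatives, the other 76 kept their direction. Under 2-fold were 9 of the 77, the turned value among them. Alternatives that change only which regions are kept (the filters and leaving out chromosome 8) cannot move the value of a region. Their values equal the main ones by construction, so the count of 76 overstates how stable the ratios are. No paired analysis was possible because there is 1 library of each kind, which also means that none could be left out. Depth limits what single regions can show.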
